A study of Rattus norvegicus with 6 samples.

Results

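Glomeruli of vehicle-treated rats transgenic for the angiotensin II receptor AT1R (AT1R Tg vehicle) were compared with glomeruli of wild-type rats (WT). The comparison takes 4 of the 6 libraries of the series, 2 of each group, chosen by the genotype and treatment in the sample labels. Both groups were Sprague Dawley rats that received vehicle, so the labels separate them by genotype; age and sequencing depth differed as well. The AT1R Tg vehicle rats were 20.4 weeks old (replicate 1) and 17.4 weeks old (replicate 2), and the WT rats 20.4 and 21.9 weeks. The remaining 2 libraries came from AT1R Tg rats given AC1903, which blocks the TRPC5 channel, and entered the fit to help estimate the spread between libraries. Ages differed within each group, so its 2 libraries came from different rats. The labels do not say which promoter drives the transgene or whether the WT rats were littermates. In the AT1R Tg rat as it is known from earlier work, the receptor is expressed in podocytes under the promoter of the nephrin gene.

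The glomerulus filters blood through a wall made of fenestrated endothelium, basement membrane and the foot processes of podocytes, with mesangial cells holding the capillary loops together. Angiotensin II acts through AT1R, a receptor coupled to Gq proteins, to raise cytosolic calcium, constrict vessels and induce growth factors of the TGF-beta family. Sustained AT1R activity in podocytes is known to lead to proteinuria and focal scarring of glomeruli.

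Sequencing was deeper in WT, with totals of 25045081 and 36026772 expected counts, than in AT1R Tg vehicle, with 13464600 and 14230770. Levels are TMM-normalised CPM, that is counts scaled to the size of each library. Of 26319 genes deposited, enough counts for a test were found in 13426. Genes of the mitochondrial genome accounted for 22.3% and 28.3% of WT counts, against 25.3% and 40.5% for the transgenic pair. AT1R Tg vehicle replicate 2, from the youngest rat, thus stood apart, and it also had the highest summed level of proximal tubule markers. Fewer cells of a type and less RNA per cell cannot be told apart in such bulk libraries.

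With edgeR's quasi-likelihood test and Benjamini-Hochberg adjustment, 10 genes (0.0745% of those tested) passed the threshold of 0.05. Of these 8 were higher in AT1R Tg vehicle (0.0596%) and 2 were lower (0.0149%). Of the 10, 9 are described here, namely TGFB3, RUNX2, ALPL, GDF5, EPX, LYPD1 and IGSF10 on the higher side and GSG1 and SPEG on the lower side. In all 10 the groups did not overlap, which was also true of 44% of all genes tested. All 10 were among the 560 genes (4.17%) that passed the same threshold in DESeq2, of which 507 (3.78%) were higher and 53 (0.395%) lower. The edgeR calls rested on few libraries: without WT replicate 1 none of the 9 passed (0 of 9, with 1 gene past the threshold in all), without WT replicate 2 RUNX2 was the 1 of the 9 that passed, and without an AC1903 library 4 or 3 genes passed in all. Age differed between the groups, and with age as a covariate TGFB3 and RUNX2 were the 2 of the 9 that passed. Fitted on the 4 libraries of these groups alone, TGFB3, RUNX2 and GSG1 were the 3 that passed.

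**Figure D1:**
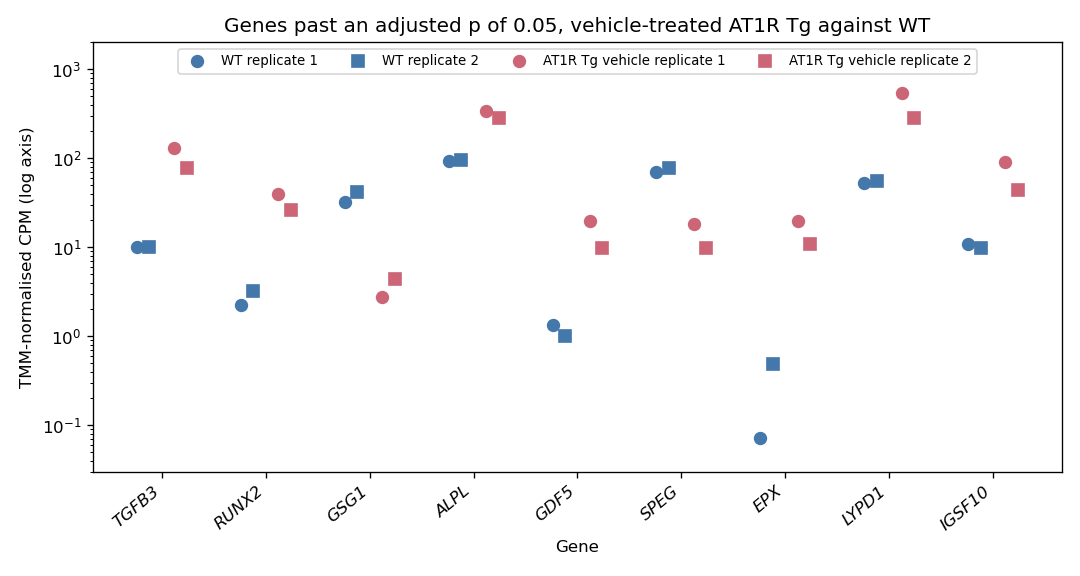
Levels of 9 genes past the threshold in each of the 4 libraries, in TMM-normalised CPM on a log axis. Circles are replicate 1 and squares replicate 2, WT in blue and AT1R Tg vehicle in red. The groups are apart in every gene, and the red circle lies above the red square in all 7 genes that were higher.

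TGFB3 (ENSRNOG00000009867), one of the 3 TGF-beta ligands, stood at 10.1 CPM in both WT libraries and at 131.5 and 77.4 CPM in AT1R Tg vehicle. The lower of the transgenic libraries was still well above WT, and the rise of TGFB3 was 3.37 on the log2 scale, SE 0.26 (edgeR quasi-likelihood test, Benjamini-Hochberg adjusted p = 0.00493). The sister ligand TGFB1 (ENSRNOG00000020652) stood at 46.1 and 54.8 CPM in WT and 39.1 and 39.7 CPM in AT1R Tg vehicle, and TGFB2 (ENSRNOG00000002418) at 35.8 and 43.2 CPM and at 35.8 and 32.6 CPM. Neither of them passed in edgeR or in DESeq2. GDF5 (ENSRNOG00000050123), a ligand of the bone morphogenetic protein branch that shapes joints and cartilage, stood at 1.33 and 1.003 CPM in WT and at 19.7 and 9.77 CPM in AT1R Tg vehicle. Its rise was 3.67 on the log2 scale with SE 0.41 (adjusted p = 0.031, edgeR quasi-likelihood test, Benjamini-Hochberg).

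The TGF-beta and BMP pathway as a whole showed no common direction. Of 40 genes tested, TGFB3 and GDF5 among them, 18 were above 0 and 22 below. The median log2 change was -0.06 against -0.03 over all genes tested. TGFB3 and GDF5 were the only members past the threshold in edgeR (0.0745% of all genes tested passed) and the only ones in DESeq2 (4.17%). The share of all genes tested that lay above 0 was 46.6%. In 6 members the groups did not overlap with AT1R Tg vehicle higher (20.6% of all genes tested did so) and in 9 with it lower (23.4%). BMP4, a ligand that glomerular and tubular development needs, was among the latter at 73.6 and 58.9 CPM in WT and 45.5 and 34.8 CPM in AT1R Tg vehicle, without passing either test.

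RUNX2 (ENSRNOG00000020193), the transcription factor that commits cells to the osteoblast lineage, stood at 2.23 and 3.23 CPM in WT and at 39.6 and 26.4 CPM in AT1R Tg vehicle. The log2 change was 3.59 with SE 0.29, and that of the 2 libraries of equal age was 3.88. ALPL (ENSRNOG00000013954), the tissue-nonspecific alkaline phosphatase that frees phosphate for mineral, stood at 93.8 and 96.3 CPM in WT and at 341 and 281.8 CPM in AT1R Tg vehicle, 3.28-fold higher. Both passed in edgeR's quasi-likelihood test (Benjamini-Hochberg adjusted p = 0.00493 for RUNX2 and 0.0154 for ALPL). The call of RUNX2 held with age as a covariate and that of ALPL did not (adjusted p = 0.0808, the same test). For both genes the replicates of a group lay close together next to the distance between the groups. Proximal tubule markers also stood higher in both transgenic libraries, and their part in the values of ALPL was not tested.

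SOST, which encodes sclerostin, the Wnt inhibitor made by osteocytes, stood at 1.36 and 0.895 CPM in WT and at 21.1 and 5.78 CPM in AT1R Tg vehicle. The transgenic libraries were far apart, and SOST passed in DESeq2 (adjusted p = 3.35e-06) but not in edgeR's quasi-likelihood test (adjusted p = 0.146, Benjamini-Hochberg). Of 13 genes tested for bone formation and mineralisation, 9 were above 0 (46.6% of all genes tested were), RUNX2 and ALPL passed in edgeR (0.0745% of all did), and these with SOST passed in DESeq2 (4.17% of all did). The median log2 change of the list was 0.35. ANKH, which exports pyrophosphate, stood at 22.9 and 22.6 CPM in WT and at 16.1 and 9.28 CPM in AT1R Tg vehicle.

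The RefSeq promoter table (build GRCr8) held windows for 7 of the 9 genes, and the 250 bases before each start site were searched on both strands for the RUNX core TGTGGT, the SMAD palindrome GTCTAGAC and the AP-1 site TGANTCA. The letters of the RUNX core, which reads ACCACA on the other strand, occur in 14.5% of the 33469 windows in the table. It was found for 2 of the 7 genes, RUNX2 and LYPD1, while GTCTAGAC (0.173% of all windows) and TGANTCA (6.34%) were found in none of the 7. The 30 bases around each match are shown, 5′ to 3′ in the direction of transcription, with the match in capitals, because RUNX2 itself is among the genes that rose. The match ends 70 bases before the start site in RUNX2, the first of its 2 start sites in the table (chr9:23664970-23664999, plus strand) and 67 bases before it in LYPD1 (chr13:39921177-39921206, minus strand).
RUNX2: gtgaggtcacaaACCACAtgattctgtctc
LYPD1: ccctccacccccACCACAactcagcagccg
For comparison, the window of ALPL (chr5:155289786-155290035, minus strand), a gene of the same list, is shown whole. It holds none of the 3 motifs, has no capitals for that reason, and 76.0% of its bases are G or C.
ALPL: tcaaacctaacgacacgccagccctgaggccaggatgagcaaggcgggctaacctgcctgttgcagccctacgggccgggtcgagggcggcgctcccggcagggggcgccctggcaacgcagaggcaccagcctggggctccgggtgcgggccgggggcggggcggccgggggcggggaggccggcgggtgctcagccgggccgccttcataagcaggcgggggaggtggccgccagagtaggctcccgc
These matches describe the letters of the windows and say nothing of binding in these glomeruli.

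EPX (ENSRNOG00000008707) encodes eosinophil peroxidase, a granule enzyme of eosinophils. It stood at 0.0718 and 0.488 CPM in WT, which rests on 2 and 18 counts, and at 19.6 and 10.9 CPM in AT1R Tg vehicle. Its rise was 5.65 on the log2 scale with SE 0.65 (adjusted p = 0.031, edgeR quasi-likelihood test, Benjamini-Hochberg). Of 16 listed markers of eosinophils, mast cells and neutrophils, 5 could be tested, and EPX was the only eosinophil marker among them. The 4 others were lower in 3 cases. S100A9, an abundant calcium-binding protein of neutrophils, stood at 1.54 and 2.79 CPM in WT and at 0.495 and 0.488 CPM in AT1R Tg vehicle. S100A8, its partner, and CSF3R, the granulocyte growth factor receptor, were likewise lower without overlap (23.4% of all genes tested were). In AT1R Tg vehicle these levels rest on few counts, 7 and 6 for S100A9, 5 and 1 for S100A8 and 12 and 14 for CSF3R. KIT, the mast cell growth factor receptor, was higher at 8.14 and 6.76 CPM against 6.07 and 3.39 CPM. None of these 4 passed in edgeR or DESeq2, and S100A9 was the 1 with an unadjusted p under 0.05 in edgeR.

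LYPD1 (ENSRNOG00000003453), a membrane-anchored protein of the Ly6 family that binds nicotinic acetylcholine receptors, stood at 52.6 and 55.3 CPM in WT and at 534.6 and 280.4 CPM in AT1R Tg vehicle (log2 change 2.92 with SE 0.34). IGSF10 (ENSRNOG00000013917), a large secreted immunoglobulin-domain protein, stood at 10.8 and 9.79 CPM and at 91.8 and 43.6 CPM (log2 change 2.72 with SE 0.34). In both genes the WT libraries lay close together and the transgenic libraries did not. With edgeR (quasi-likelihood, Benjamini-Hochberg) the adjusted p was 0.0325 for LYPD1 and 0.0469 for IGSF10, and IGSF10 passed in 7 of the 17 alternatives.

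Of the genes that fell, GSG1 (ENSRNOG00000008518), known from germ cells, stood at 32.01 and 41.6 CPM in WT and at 2.76 and 4.39 CPM in AT1R Tg vehicle, 10.3-fold lower. SPEG (ENSRNOG00000019850), a kinase that holds the calcium-release membranes of muscle in place, stood at 69.9 and 77.3 CPM and at 18.2 and 9.69 CPM, 5.26-fold lower. With edgeR (quasi-likelihood, Benjamini-Hochberg) their adjusted p was 0.0154 and 0.031. The calcium-binding troponin TNNC1, also a muscle gene, stood at 356 and 479.6 CPM in WT and at 197.5 and 144.6 CPM in AT1R Tg vehicle, and passed in DESeq2 only. Muscle genes had no common direction: of 9 genes tested of striated muscle and sarcomere, 5 were above 0 (46.6% of all genes tested were) and 4 below. In 4 the groups did not overlap with AT1R Tg vehicle higher (20.6% of all), and in 4 with it lower (23.4%).

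In the order of genes in RefSeq's GRCr8 annotation, the 3 nearest tested genes on each side of the 9 made 54 neighbours. None passed in edgeR (0 of 54; 0.0745% of all genes did), where 7 (13.0%) had an unadjusted p under 0.05, against 11.9% of all genes tested. In DESeq2 2 (3.7%) passed, against 4.17% of all, so both shares were near those over all genes. One was DES, desmin, which lies beside SPEG and stood at 168 and 231 CPM in WT and at 118 and 111 CPM in AT1R Tg vehicle. The other was ACMSD, an enzyme of tryptophan breakdown near LYPD1, at 17.6 and 9.38 CPM against 29.8 and 69.02 CPM.

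**Figure D2:**
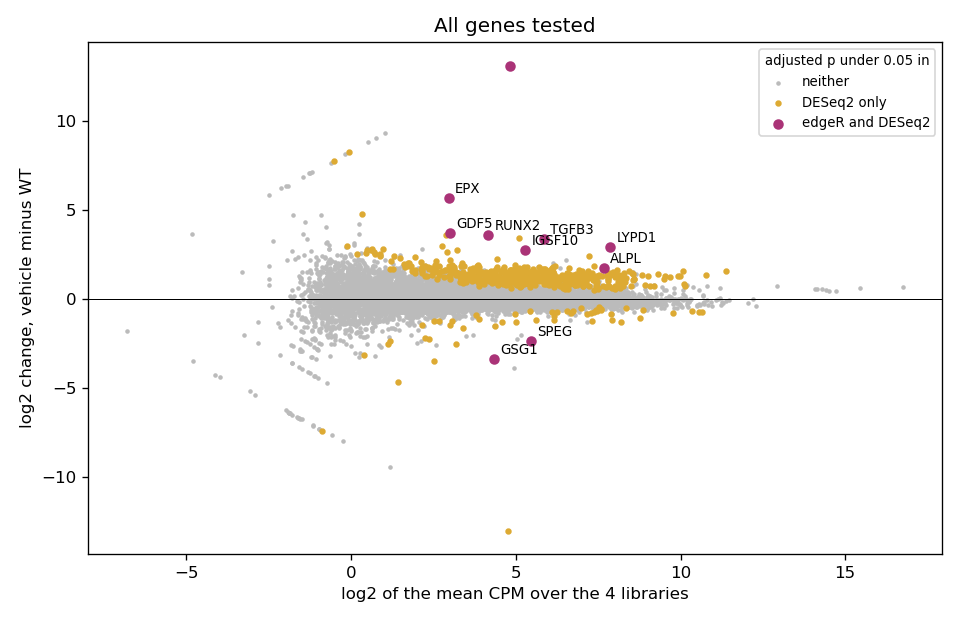
Log2 change of AT1R Tg vehicle minus WT from the edgeR fit (y axis) against the log2 of the mean CPM over the 4 libraries (x axis), 1 point a gene, for 13426 genes. Purple points passed in edgeR and DESeq2 (10 genes, 9 of them labelled), yellow points in DESeq2 only, and grey points in neither; the fitted change of genes with no count in a group depends on a prior count and is not a measured size.

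The genes that rose in edgeR and the wider set of higher DESeq2 calls differed in which transgenic library was the higher. All 7 of the 9 that rose in edgeR were higher in AT1R Tg vehicle replicate 1 than in replicate 2, by 1.21-fold (ALPL) to 2.11-fold (IGSF10). Of the 2 that fell, GSG1 was further from WT in replicate 1 and SPEG in replicate 2. Of the 507 genes higher in DESeq2, 445 (87.8%) were higher in replicate 2 than in replicate 1, which was true of 51.5% of all genes tested. Leaving out either transgenic library leaves an arm of 1 library, which is assumed to vary like the others. The edgeR count of such a fit therefore does not show which library the calls follow.

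Below the threshold, the 15 genes of smallest p on each side whose groups did not overlap had adjusted p from 0.0623 to 0.134 (higher) and from 0.0674 to 0.178 (lower) in edgeR's quasi-likelihood test with Benjamini-Hochberg adjustment. All 30 were DESeq2 calls, and their levels are descriptions, since they were picked by p. SYNPR, a synaptic vesicle protein, stood at 4.67 and 7.29 CPM in WT and at 86.05 and 39.2 CPM in AT1R Tg vehicle. RSPO1, the secreted R-spondin that amplifies Wnt signals, stood at 9.12 and 11.9 CPM in WT and at 0.708 and 1.14 CPM in AT1R Tg vehicle. These had the largest changes of the 30, 3.38 and -3.51 on the log2 scale.

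Among the same 30 genes, GLP1R, the receptor of the incretin hormone GLP-1, stood at 3.34 and 1.52 CPM in WT and at 13.4 and 19.2 CPM in AT1R Tg vehicle. ADRA2B, an alpha-2 adrenergic receptor, stood at 2.26 and 1.87 CPM and at 15.8 and 9.85 CPM. PDE1B, a calcium- and calmodulin-dependent phosphodiesterase, was lower, at 102.6 and 94.8 CPM in WT and 50.7 and 35.9 CPM in AT1R Tg vehicle.

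Podoplanin (PDPN), a mucin-like protein of the podocyte surface, stood at 325 and 341 CPM in WT and at 163 and 129 CPM in AT1R Tg vehicle. PLTP, the phospholipid transfer protein, stood at 593.5 and 605 CPM and at 309.7 and 253 CPM. Neither passed in edgeR (adjusted p = 0.162 for both, quasi-likelihood test, Benjamini-Hochberg).

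COL1A1, a chain of the fibrillar collagen I, stood at 47.1 and 48.3 CPM in WT and at 368 and 131 CPM in AT1R Tg vehicle. Its groups were far apart, and so were its 2 transgenic libraries. THY1, listed here with the fibroblast and perivascular markers, showed the same order, 142 and 176 CPM in WT and 534.4 and 276 CPM in AT1R Tg vehicle. Claudin 2 (CLDN2), the paracellular cation pore of the proximal tubule, stood at 114 and 93.01 CPM in WT and at 198.5 and 268.6 CPM in AT1R Tg vehicle. GRHPR, an enzyme that clears glyoxylate, and the esterase-like CMBL were also higher, and in these tubule-expressed genes replicate 2 was the higher of the 2 transgenic libraries. SPINK1, a trypsin inhibitor, stood at 160.2 and 106.9 CPM in WT and at 324 and 344 CPM in AT1R Tg vehicle.

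**Figure D3:**
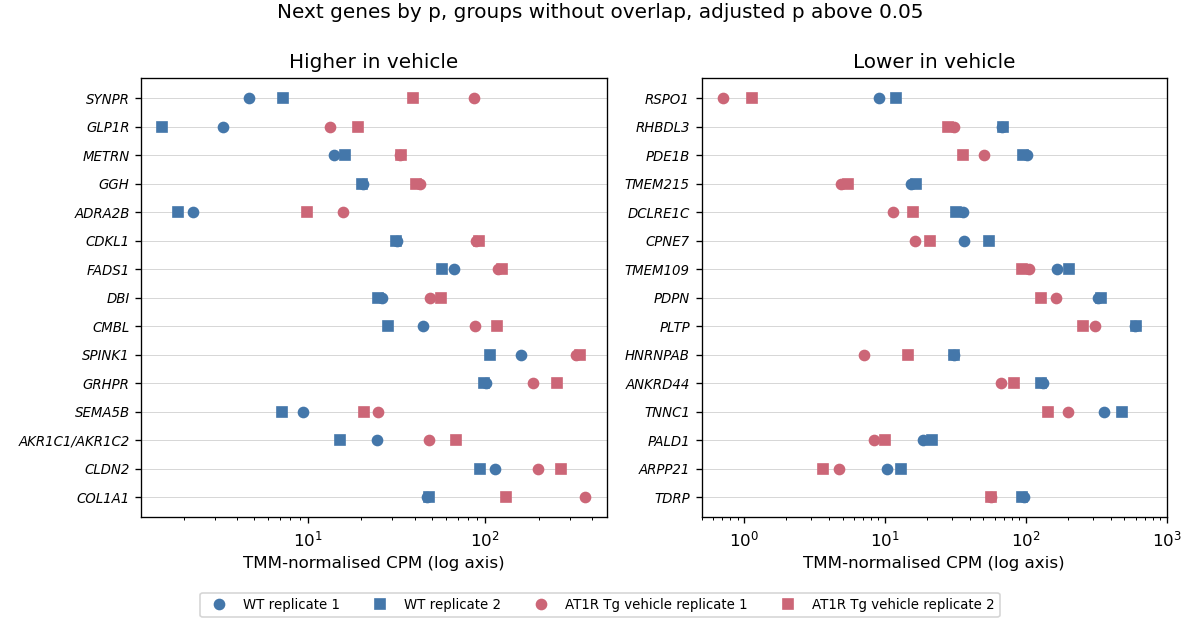
Levels in each library of the 15 genes higher (left) and the 15 lower (right) with the smallest p among genes short of the threshold whose groups do not overlap, in TMM-normalised CPM on log axes. Circles are replicate 1 and squares replicate 2, with WT in blue and AT1R Tg vehicle in red; the rule that chose these genes makes the colours separate in every row.

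Genes of AT1R signalling itself showed no shared change. The table pairs AGTR1, the receptor, with 2 rat genes. One (ENSRNOG00000010640) stood at 98.2 and 150.7 CPM in WT and at 99.3 and 95.5 CPM in AT1R Tg vehicle. The other (ENSRNOG00000018346) stood at 85.3 and 112 CPM and at 87.8 and 89.9 CPM. Neither gene separated the groups, and the 2 are closely related copies whose reads the counting may have divided. Which species' receptor was used as the transgene is not in the labels, so no check of the genotype follows from these values.

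Of 25 genes of AT1R signalling and its early targets, 9 were above 0 and 16 below, with a median log2 change of -0.12, and none passed in edgeR or DESeq2. At an unadjusted p under 0.05 in edgeR there was 1 on the higher side, where 8.57% of all genes tested lay, and 0 on the lower, where 3.35% lay. That gene, RCAN1, a calcineurin regulator induced by calcium, stood at 67.0 and 75.2 CPM in WT and at 98.9 and 107.5 CPM in AT1R Tg vehicle. RGS2, which switches off Gq signalling, stood at 72.3 and 119 CPM and at 71.3 and 61.7 CPM, and the immediate early gene FOS at 7.25 and 5.29 CPM and at 4.88 and 2.28 CPM. Of 36 genes of calcium entry and handling, 18 were above 0 and 18 below, none passed in edgeR (5 at an unadjusted p under 0.05, 11.9% of all genes tested) and 1 in DESeq2 (4.17% of all). TRPC6, the podocyte cation channel, stood at 3.55 and 4.55 CPM in WT and at 4.53 and 2.85 CPM in AT1R Tg vehicle. These groups overlapped.

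Vasoactive genes were more often lower than higher, with 13 of 18 below 0 and a median log2 change of -0.21, where 53.4% of all genes tested were below 0. None passed in edgeR, and 2 had an unadjusted p under 0.05, a share no larger than the 11.9% of all genes tested. In 8 members the groups did not overlap with AT1R Tg vehicle lower (23.4% of all), and NPR1, the receptor of atrial natriuretic peptide, passed in DESeq2 (0.395% of all on the lower side). It stood at 216 and 246 CPM in WT and at 154 and 158.5 CPM in AT1R Tg vehicle. The alpha-1 adrenergic receptor ADRA1A passed in DESeq2 on the higher side (3.78% of all) at low levels, 0.431 and 0.298 CPM in WT and 2.62 and 2.2 CPM in AT1R Tg vehicle.

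In the Notch pathway, which governs cell fate in endothelium and podocytes, 15 of 17 genes were below 0 and in 12 the groups did not overlap with AT1R Tg vehicle lower (23.4% of all genes tested). The median log2 change was -0.33, and it was -0.28 and -0.29 in the 2 transgenic libraries taken singly against the WT mean. No member passed in edgeR, where 1 had an unadjusted p under 0.05 on the lower side (3.35% of all), or in DESeq2. The endothelial ligand DLL4 stood at 130 and 148 CPM in WT and at 93.1 and 103 CPM in AT1R Tg vehicle, and the related ligand DLL1 at 15.4 and 18.2 CPM and at 12.7 and 12.4 CPM. The receptor NOTCH1 stood at 277.5 and 259 CPM and at 215 and 206 CPM. Many of these genes are made by endothelium, and the endothelial markers stood lower too; the part of that in the Notch values was not tested.

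Wnt pathway genes had no common direction, with 17 of 31 above 0 and a median log2 change of 0.04, and none passed in edgeR (5 at an unadjusted p under 0.05, 11.9% of all genes tested). In DESeq2 (4.17% of all) the inhibitor NKD2 and the receptor FZD1 passed on the higher side and RSPO1 on the lower. NKD2 stood at 75.0 and 96.97 CPM in WT and at 267.7 and 139.8 CPM in AT1R Tg vehicle. FZD1 stood at 42.3 and 28.7 CPM and at 54.6 and 102 CPM. The 2 genes were thus highest in different transgenic libraries. Among 16 genes of the glomerular basement membrane none passed in edgeR (3 at an unadjusted p under 0.05, 11.9% of all). The laminin chain LAMB1 (23.2 and 19.2 CPM against 39.6 and 44.9 CPM) and the collagen chain COL4A6 (7.36 and 6.1 CPM against 31.0 and 14.3 CPM) passed in DESeq2 (4.17% of all did). The median log2 change of that list was 0.10, and it was -0.16 without AT1R Tg vehicle replicate 1.

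The labelled tissue was checked against its markers, and podocyte markers were present at high levels in every library. Summed over 20 podocyte markers, the level was 20350 and 17390 CPM in WT and 21550 and 12020 CPM in AT1R Tg vehicle. Replicate 1 thus stood above both WT libraries and replicate 2 below both. In all, 17 of 20 markers were below 0 (53.4% of all genes tested were) with a median log2 change of -0.21. None passed in edgeR or DESeq2, and 1 had an unadjusted p under 0.05 in edgeR on the lower side (3.35% of all). The median was 0.13 without AT1R Tg vehicle replicate 2 and -0.71 without replicate 1. NPHS1, nephrin, stood at 2329 and 1814 CPM in WT and at 2361 and 1271 CPM in AT1R Tg vehicle. For SYNPO, which encodes synaptopodin, the levels were 778 and 523 CPM in WT against 809 and 399 CPM. In both genes the groups overlapped. The transcription factor WT1 stood at 288 and 273 CPM and at 272.5 and 135 CPM, and TCF21, a factor of the same lineage, at 142 and 131 CPM and at 113 and 69.2 CPM.

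Endothelial markers were lower in both transgenic libraries. ROBO4 stands in the table under 2 identifiers with identical values and is counted once here, a choice made after the values were seen. The sum was 10200 and 10300 CPM in WT and 7333 and 7835 CPM in AT1R Tg vehicle. Of 18 genes tested, 16 were below 0 (53.4% of all were) and in 14 the groups did not overlap with AT1R Tg vehicle lower (23.4% of all genes tested), with a median log2 change of -0.34. None passed in edgeR, with 2 at an unadjusted p under 0.05 on the lower side (3.35% of all genes tested). PLAT, tissue plasminogen activator, passed in DESeq2 (0.395% of all did so on the lower side). PLAT stood at 2090 and 1926 CPM in WT and at 1396 and 967 CPM in AT1R Tg vehicle. ERG, an endothelial transcription factor, stood at 75.2 and 67.5 CPM and at 54.7 and 57.6 CPM. Left out in turn, each of the 4 libraries left 16 of the 18 below 0, with medians from -0.43 to -0.29.

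Proximal tubule markers, which belong to a neighbouring segment of the nephron, were higher in both transgenic libraries. Their sum was 4215 and 2630 CPM in WT and 6146 and 12030 CPM in AT1R Tg vehicle. All 19 tested markers were above 0 without overlap (20.6% of all genes tested were), 18 passed in DESeq2 (3.78%) and none in edgeR, where 18 had an unadjusted p under 0.05 (8.57%). SLC34A1, the sodium-phosphate cotransporter of the brush border, stood at 678 and 517.5 CPM in WT and at 934 and 1902 CPM in AT1R Tg vehicle. Enzymes of amino acid, ketone and glucose metabolism, many of them abundant in that segment, showed the same order. Of 31 tested, 31 were above 0 (46.6% of all genes tested were), 22 passed in DESeq2 (3.78%) and none in edgeR, where 24 had an unadjusted p under 0.05 (8.57% of all, on the higher side), with a median log2 change of 1.12 and, in single libraries against the WT mean, of 0.72 in replicate 1 and 1.56 in replicate 2. GLYAT, which couples glycine to acyl groups, stood at 189 and 144 CPM in WT and at 332 and 570.2 CPM in AT1R Tg vehicle, and the urea-cycle enzyme ASS1 at 168.5 and 95.8 CPM and at 243 and 565 CPM. The same libraries carried the higher level of tubule markers, and how much of these values that accounts for was not tested.

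Other genes known from the tubule stood out in the remaining lists by DESeq2, again with none past the threshold in edgeR. The phosphate transporter SLC34A3 stood at 57.2 and 43.5 CPM in WT and at 85.1 and 161 CPM in AT1R Tg vehicle, and KL, the FGF23 co-receptor klotho, at 21.4 and 8.02 CPM and at 29.2 and 66.1 CPM. Among lysosomal genes, 18 of 27 were above 0 (46.6% of all genes tested were) with a median of 0.07, and CTSH, a cathepsin, stood at 583 and 416.5 CPM and at 1008 and 1270.0 CPM. Of 34 vascular and mesenchymal growth factors and receptors tested, KL, FGF1 and PDGFC passed in DESeq2 on the higher side (3.78% of all did). In each of these genes replicate 2 was the higher transgenic library.

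Parietal epithelial markers, of the cells that line Bowman's capsule, had a median log2 change of 0.64 over 10 genes, 7 of them above 0 (46.6% of all genes tested were). KRT8 and PAX8 passed in DESeq2 (3.78% of all did so on the higher side) and none passed in edgeR. There 4 had an unadjusted p under 0.05 on the higher side (8.57% of all) and 1 on the lower (3.35%). PAX8, a kidney lineage factor also made in tubules, stood at 21.3 and 25.2 CPM in WT and at 37.01 and 44.1 CPM in AT1R Tg vehicle, while KRT18, the partner keratin of KRT8, stood at 2.23 and 10.5 CPM and at 1.98 and 1.71 CPM. The list median was -0.04 without AT1R Tg vehicle replicate 1. Fibroblast markers summed to 332.5 and 376 CPM in WT and to 1086 and 533 CPM in AT1R Tg vehicle. Their median over 11 genes was 0.71, and it was 0.09 without AT1R Tg vehicle replicate 1. None passed in edgeR, and COL1A1 and THY1 were the 2 that passed in DESeq2 (3.78% of all genes tested did so on the higher side). These 2 carried the difference of the sums: without them, a choice made after the values were seen, the other 9 genes summed to 143.5 and 151.2 CPM in WT and to 183.8 and 125.4 CPM in AT1R Tg vehicle, and replicate 2 lay below both WT libraries. The other collagen I chain, COL1A2, stood at 16.2 and 17.8 CPM and at 20.1 and 18.1 CPM, and COL3A1 and PI16 had log2 changes of -0.06 and -0.38. Which cells of the glomerulus made the RNA of COL1A1 and THY1 was not tested.

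Of 9 erythroid and platelet genes tested, 7 were below 0 (53.4% of all genes tested were), and these 7 were haemoglobin genes. The platelet integrin ITGA2B and the anion exchanger SLC4A1 had log2 changes of 0.47 and 0.07. The sum of the list was 237.5 and 135 CPM in WT and 43.7 and 80.7 CPM in AT1R Tg vehicle. None of the 9 passed in edgeR, where 2 had an unadjusted p under 0.05 on the lower side (3.35% of all), or in DESeq2. Of 22 genes of interleukins, the TNF family and their receptors, 17 were below 0 and 5 above (53.4% of all genes tested were below), with a median log2 change of -0.24, and in 9 the groups did not overlap with AT1R Tg vehicle lower (23.4% of all). IL1B, a cytokine of activated macrophages, stood at 2.98 and 4.72 CPM in WT and at 0.354 and 2.04 CPM in AT1R Tg vehicle. No member of that list passed either test or had an unadjusted p under 0.05 in edgeR (11.9% of all genes tested did). Macrophage markers overlapped in their sums, at 450.4 and 688 CPM in WT and 464.5 and 600.5 CPM in AT1R Tg vehicle. Of 16 macrophage markers tested, 14 were below 0 and none passed either test. Their median log2 change was -0.28, and it was 0.11 without WT replicate 2.

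**Figure D4:**
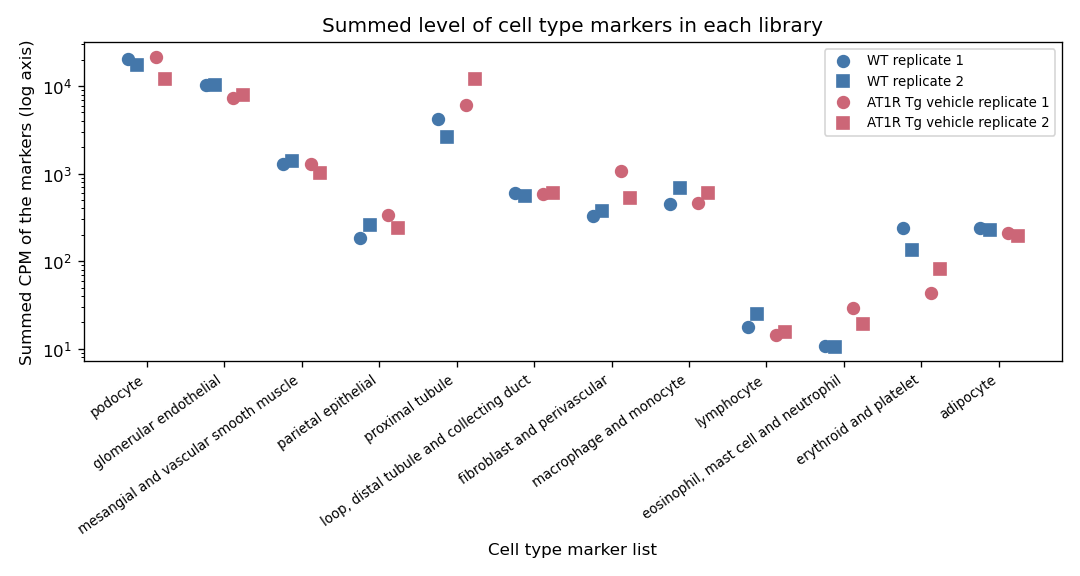
Summed level of the markers of each cell type in each library, in TMM-normalised CPM on a log axis, with WT in blue, AT1R Tg vehicle in red, circles for replicate 1 and squares for replicate 2. Proximal tubule and fibroblast sums are higher in both transgenic libraries than in WT, endothelial and erythroid sums are lower, and the 2 transgenic podocyte sums lie on either side of WT; the fibroblast difference is that of COL1A1 and THY1, without which replicate 2 sums to 125.4 CPM against 143.5 and 151.2 CPM in WT.

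**Figure D5:**
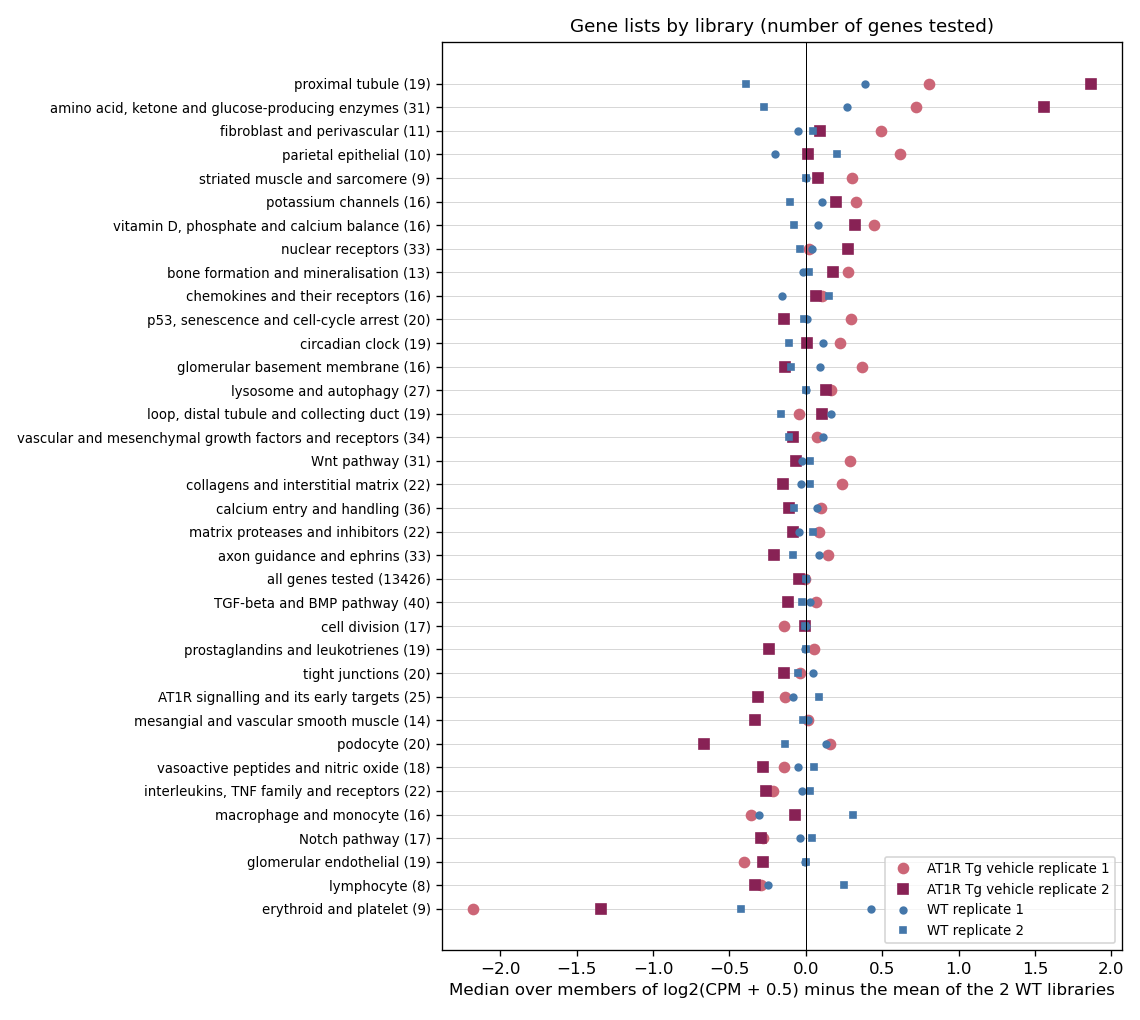
Median over the genes of each list of log2(CPM + 0.5) minus the mean of the 2 WT libraries, 1 row a list with at least 8 genes tested and the number tested in brackets (both identifiers of ROBO4 among the 19 of the endothelial row). Red circles and dark squares are AT1R Tg vehicle replicates 1 and 2 and blue symbols the WT libraries; the proximal tubule row lies at 0.80 and 1.87, the Notch row at -0.28 and -0.29, and the row of all genes tested near 0.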

How the data were processed

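Messenger RNA of isolated rat glomeruli was prepared with a stranded Illumina kit, per the labels' protocols. The authors deposited expected counts for each Ensembl gene; per the submitters' processing notes the tools were RSEM 1.3.0 with STAR 2.5.2b, on Rnor_5.0. No source used here gives the annotation release. The authors' deposited tables of log2 fold changes and adjusted p-values gave only the symbols (12302 of the genes tested), which are human and in capitals, and their values were not used here. RSEM divides reads among similar genes, so near-identical copies are uncertain.

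Expected counts were rounded to whole numbers, filtered with filterByExpr and scaled by TMM. Groups were compared with the quasi-likelihood test (two-sided) of edgeR 4.0.16 under R 4.3.3, fitted to the 6 libraries as 3 groups with 3 residual degrees of freedom, adjusted over all 13426 genes (Benjamini-Hochberg, threshold 0.05). The common biological coefficient of variation was 23.0%. Each SE is the size of the log2 change divided by the square root of the F value of edgeR's test. The SEs thus draw on all 6 libraries and not only on the n = 2 of each group. The p-values rest on these samples alone. DESeq2 1.42.0, limma-voom (limma 3.58.1), other scalings, filters and designs, age, and leaving out each library were alternatives. Single-library log2 values add 0.5 CPM. Replicates of a group differed by more than sampling noise (chi-square per degree of freedom 53.4 in WT and 92.8 in AT1R Tg vehicle).

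The 4 libraries, the 38 gene lists (12 of cell type markers, 26 of pathways) and the rule for named genes were chosen with earlier results of these data known. The rule names every gene past the threshold, then the 15 per direction of smallest p among genes with at least 1 CPM whose groups do not overlap, up to 4 genes of each list by p, and a fixed set (AGTR1, TRPC6, NPHS1, WT1, SYNPO, COL1A1 and the 3 TGF-beta ligands, with RUNX2). Of these the text gives part, and some are not reported here; DES, ACMSD, NOTCH1, SLC34A1, KRT18 and others were named after their values were seen. Lists are described by counts and medians, with no test.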

Additional observations from a re-analysis of the deposited data

How the results depend on the processing

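The 10 genes past the threshold kept their direction under each of the 17 alternatives. Of the 9 described, RUNX2 passed in 16, TGFB3 in 15, GSG1 in 13, ALPL, SPEG and LYPD1 in 10, GDF5 and EPX in 9 and IGSF10 in 7. The number of genes past the threshold was 560 with DESeq2 (507 higher, 53 lower), 774 with no filter on low counts (678 higher, 96 lower), and 4 each from the 2 groups alone (3 higher, 1 lower), with the replicate number as a replicate block and with age as a covariate. Of the 9, TGFB3, RUNX2 and GSG1 passed with the 2 groups alone and with the replicate block, and TGFB3 and RUNX2 with age. The number was 7 to 10 with limma-voom, the other scalings, a filter of 5 CPM and robust estimation. Leaving out 1 library gave 1 to 530 genes: 1 without WT replicate 1 and 4 without WT replicate 2, 530 without AT1R Tg vehicle replicate 1 and 24 without its replicate 2, and 4 and 3 with an AC1903 library out. An arm left with 1 library is assumed to vary like the others. Over all genes tested, same-numbered libraries did not deviate together (correlation -0.02 between WT and AT1R Tg vehicle). That value cannot exclude a pairing that acts on part of the genes. Of 1775 values of 105 named genes under the alternatives, 7 changed sign, all in genes that passed no test: TGFB2 stood at 0.083 with age as a covariate. Leaving out a library, NPHS1 ran from -0.71 to 0.19, SYNPO from -0.71 to 0.32, TRPC6 from -0.51 to 0.16 and AGTR1 (ENSRNOG00000018346) from -0.33 to 0.056; the cause was not tested. The list medians of proximal tubule, endothelial, Notch, vasoactive and bone genes kept their sign in all 17, and those of podocyte, parietal and AT1R signalling genes in 16. WT was sequenced more deeply, so low genes are better resolved there than in AT1R Tg vehicle.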
